A study of Homo sapiens with 4 samples.

Results

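The genes described here are 9 transporters, pumps, chaperones and channel subunits through which copper and platinum drugs enter, cross or leave cells: SLC31A1, SLC31A2, ATP7A, ATP7B, ATOX1, SLC22A2, SLC22A3, LRRC8A and LRRC8D. They were chosen by name, and all 15 probes that the array design assigns to them were taken, out of 43305 gene names and 58201 probes in all. The data are 4 single-colour Agilent arrays, 1 for each of the human head and neck squamous cell carcinoma (HNSCC) lines HN4 and HN30 and of their cisplatin-resistant derivatives, labelled HN4_CR and HN30_CR and called HN4/DDP and HN30/DDP by the study. HN4 and HN30 are established cell lines grown in DMEM with serum. The resistant lines were made from them by rising doses of cisplatin and were kept in 20 μM cisplatin, for 48 h by the sample labels, whereas no drug is named for the parental lines. Resistance acquired over passages and the presence of the drug at harvest therefore cannot be told apart. No transgene or deletion is named for any group, and nothing says whether a resistant line is 1 clone or a pool. The question is whether the transcripts of these genes differed between the resistant lines and the lines they came from.

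SLC31A1 (CTR1) is the main high-affinity copper importer of the plasma membrane and has been linked to the entry of cisplatin. SLC31A2 (CTR2) is its relative, found mostly on internal membranes, and ATOX1 is a small chaperone that hands copper in the cytosol to the copper-exporting ATPases ATP7A and ATP7B, which pump it into the secretory pathway or out of the cell and are known for binding platinum. SLC22A2 and SLC22A3 (OCT2 and OCT3) are organic cation carriers, with OCT2 best known from the kidney tubule. LRRC8A is the obligatory subunit of the volume-regulated anion channel, and LRRC8D is the partner subunit known to let larger solutes, platinum drugs among them, pass.

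What the arrays measured is set by the probes. The following lines give the first 30 bases, 5′ to 3′, of the 60-base probes of ATP7B, SLC31A2, LRRC8D, ATOX1 and the copper importer SLC31A1. Their hg19 positions follow in the text.
ATP7B: acatttccgctgtccgtcagtaattgtgtc
SLC31A2: cattttttgagttagatgggactctctgga
LRRC8D: aagaaaagcgggcttgttgtggaagatcac
ATOX1: tgaagaaaacaggaaagactgtttcctacc
SLC31A1 probe 1: gagcttttgtggcagtgtttttactagcaa
SLC31A1 probe 2: ccactaggagattagaaattaaggtttctt
The probe of ATP7B lies at chr13:52507035-52507094 on the minus strand and that of SLC31A2 at chr9:115926240-115926299 on the plus strand. LRRC8D is read at chr1:90401097-90401156 (plus), ATOX1 at chr5:151125870-151125929 (minus) and LRRC8A at chr9:131680227-131680286 (plus). SLC31A1 has a probe at chr9:116020983-116021042 and another at chr9:116026107-116026166, both plus. Of the 15 probes, 12 carry an accession that RefSeq (GRCh38.p14) assigns to the same symbol. The probe of SLC22A3 and 1 probe each of ATP7A and SLC22A2 carry other transcript accessions.

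Signals are given on the log2 scale relative to the 75th percentile of each array's processed intensities, so that 0 is the array's own 75th percentile, and levels are compared only between arrays for the same probe. The 75th percentile was 494, 496, 444 and 480 in HN4, HN4/DDP, HN30 and HN30/DDP, between 55.3% and 63.6% of the spots were marked well above background, and no spot was saturated. Among 22149 genes well above background on all 4 arrays, the parental arrays were more alike (r = 0.986 across genes, 94.0% of genes within 1 log2 unit) than HN4/DDP and HN4 (r = 0.969, 87.3%) or HN30/DDP and HN30 (r = 0.942, 71.7%). Of 9 squamous epithelial markers, all were well above background on each array except KRT6A on the HN30/DDP array, and 4 were higher and 1 lower in HN4/DDP, 1 higher and 2 lower in HN30/DDP, by the threshold given in the next paragraph. KRT5 was the only squamous marker lower in both lines (-4.05 and -1.93), and none was higher in both. Of 7 fibroblast markers, 2 (COL1A1 and PDGFRB) were well above background on every array, and COL1A2, COL3A1, DCN, LUM and THY1 on none. The summed signal of the 7 was 0.402, 1.03, 0.243 and 0.791 times the 75th percentile in the order HN4, HN4/DDP, HN30 and HN30/DDP. COL1A1 was higher in both lines (1.73 and 2.43), and PDGFRB passed the threshold in neither (-0.012 and 0.63). The summed signal of the 4 leukocyte markers found was 6.36, 9.29, 3.66 and 39.7 times the 75th percentile in the same order of arrays, and CD14, at 1.82 in HN30 and 5.30 in HN30/DDP on the log2 scale, differed most between that pair, while PTPRC differed by 0.16. The part of any of these in the differences described here was not tested.

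With 1 array per condition there is no test of a resistant line against its parental line. Each difference is set beside an SD computed from the error that the scanner software gave each spot (scanner SD), which leaves out all variation between cultures, and beside the differences of all other genes. The threshold was a log2 difference of 1 (2-fold). Genes past it upward are called higher if the resistant array measured them well above background, and genes past it downward are called lower if the parental array did.

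The copper exporter ATP7B was higher in both resistant lines, and SLC31A2 and LRRC8D were lower in HN4/DDP. SLC31A1 and LRRC8A did not reach the threshold in either line, ATOX1 went opposite ways in the lines, and the organic cation carriers SLC22A2 and SLC22A3 were not well above background anywhere. Of the 7 members that could be compared, 1 was higher in HN4/DDP, where 9.31% of all genes were, and 2 were lower, where 8.65% of all genes were. In HN30/DDP 1 of the 7 was higher and 0 were lower, against 19.8% and 13.3% of all genes. The median difference of the 7 was 0.21 in HN4/DDP, beside -0.077 over all 26853 genes compared there, and -0.25 in HN30/DDP, beside 0.057 over 28330 genes.

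**Figure D1:**
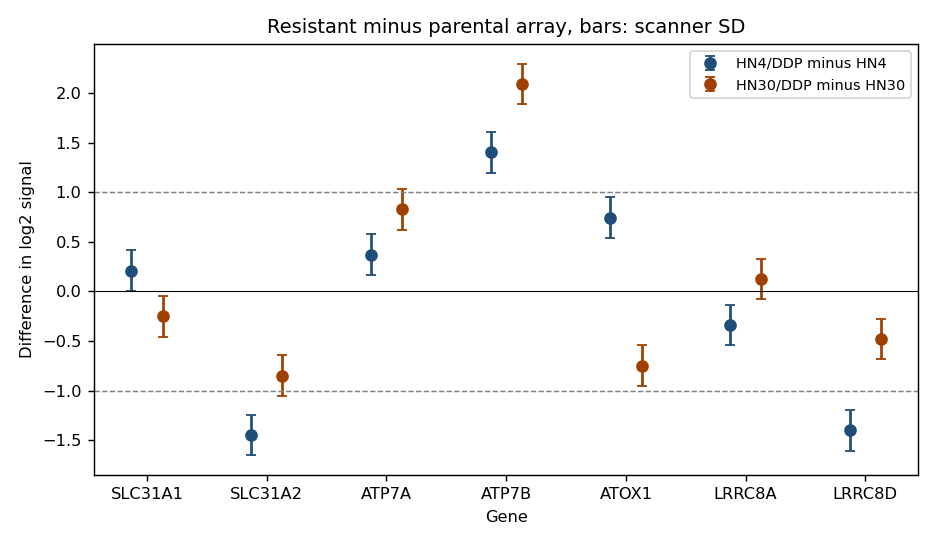
Difference in log2 signal (vertical axis) of each resistant array from its parental array for the 7 genes well above background on all arrays (horizontal axis); bars are the scanner SD and dashed lines mark 1 and -1. ATP7B lies above 1 in both lines, and SLC31A2 and LRRC8D lie below -1 in HN4/DDP only.

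Among the exporters, ATP7B is the pump whose loss causes Wilson disease, with excess copper in the liver. Its normalized log2 signal was -0.79 in HN4 and -1.32 in HN30 against 0.61 in HN4/DDP and 0.77 in HN30/DDP. Both resistant arrays thus lay above both parental arrays. HN4/DDP exceeded HN4 by 1.40 (scanner SD 0.21), or 2.64-fold, and the difference was 2.09 in HN30/DDP (scanner SD 0.21), or 4.26-fold. Of the genes that both arrays of the pair measured above background, 3.53% had a larger difference in HN4/DDP and 4.02% in HN30/DDP. Past 1 in both lines were 3.9% of all 29521 genes that some array measured well above background. Past 2 upward, 1 member (ATP7B) stood in HN30/DDP beside 8.37% of genes, and 0 in HN4/DDP beside 3.61%, while past 2 downward there were 0 members in either, beside 2.75% and 2.2%. The parental lines differed in ATP7B by -0.53 (HN30 minus HN4, scanner SD 0.21), the resistant lines by 0.16 (HN30/DDP minus HN4/DDP, scanner SD 0.20). ATP7B has 1 probe, so no other probe bears on it.

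The only replicated fit that the arrays allow takes the cell lines as replicates. With limma, 2 resistant against 2 parental arrays and the cell line as a block leave 1 residual degree of freedom per gene. ATP7B was higher by 1.75 over both lines (standard error 0.41, limma adjusted p = 0.485 with Benjamini-Hochberg adjustment over 29521 genes), higher in 2 of 2 lines. SLC31A2 had a difference of -1.15 (standard error 0.42, limma adjusted p = 0.578). No member and no other gene passed an adjusted p of 0.05 (0 of 29521 genes, or 0.0%), and at an unadjusted p under 0.05 there were 2 of the 7 members and 8.59% of all genes. The adjusted p of ATP7B ranged from 0.296 to 0.669 over 7 other settings of the fit.

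ATP7A, the pump of most tissues other than liver, whose loss causes Menkes disease, is read by 5 probes along chromosome X, numbered here by hg19 position: chrX:77227198-77227257, chrX:77267846-77267905, chrX:77302314-77302373, chrX:77302448-77302507 and chrX:77305601-77305657, all on the plus strand. All were well above background on all 4 arrays. The brightest of them, probe 1, read -0.44 in HN4 and -0.72 in HN30 against -0.06 in HN4/DDP and 0.10 in HN30/DDP. The HN4/DDP value exceeded that of HN4 by 0.37 (scanner SD 0.20) and the HN30/DDP value that of HN30 by 0.83 (scanner SD 0.21), under the threshold in each. The HN30/DDP call turns with the processing: it was 1.09 with the percentile taken over probes well above background on all arrays, 1.02 with the mean of the 5 probes and 0.41 with the arrays scaled to their medians. In HN4/DDP the 5 probes gave differences between -0.23 and 0.38, and in HN30/DDP between -0.33 and 2.22. The probes of ATP7A therefore disagree in HN30/DDP. Probe 2, which carries an accession other than RefSeq, differed by 2.22 there (scanner SD 0.36) and probe 5 by 1.69 (scanner SD 0.22), while probe 4 differed by -0.33 (scanner SD 0.22). Probe 2 was also the dimmest of the 5 on 3 of the 4 arrays, at -3.50, -3.73, -4.58 and -2.36 in the order HN4, HN4/DDP, HN30 and HN30/DDP. By limma the difference of probe 1 over both lines was 0.60 (standard error 0.39, adjusted p = 0.734).

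**Figure D2:**
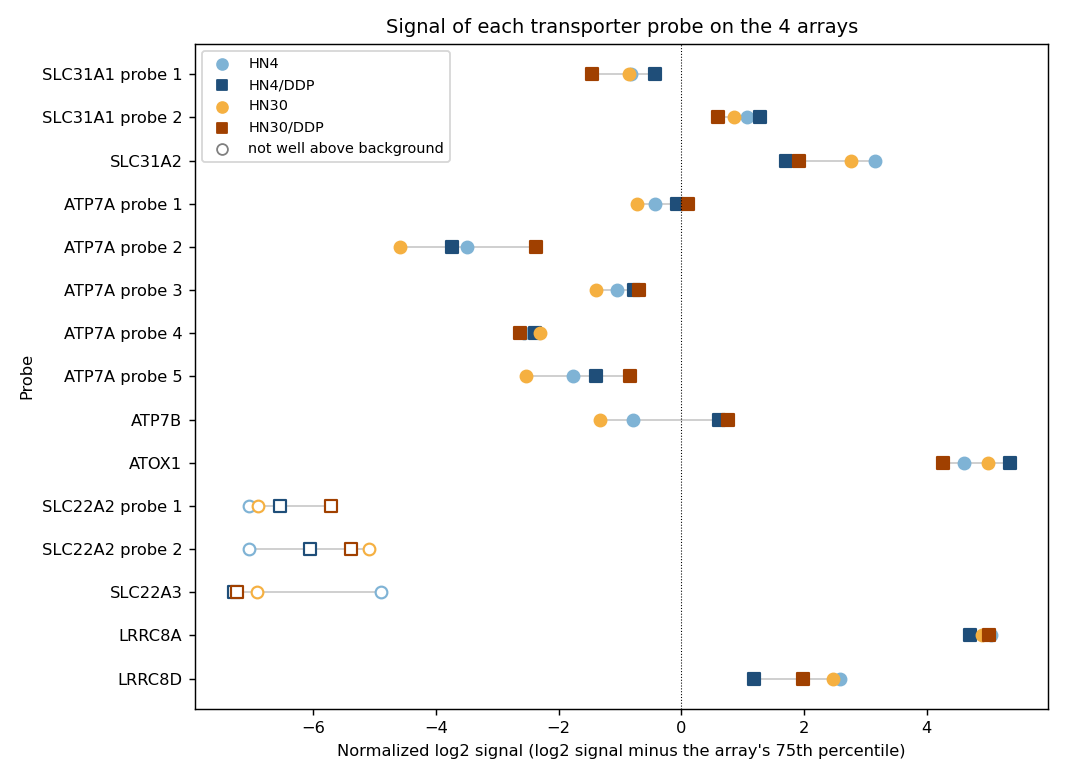
Normalized log2 signal (horizontal axis) of each of the 15 probes (vertical axis) on the 4 arrays; circles are parental and squares resistant arrays, and open symbols are signals not well above background. The resistant arrays lie to the right of the parental ones for ATP7B and to the left for SLC31A2 and LRRC8D, and the SLC22A2 and SLC22A3 probes are open on every array.

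ATOX1, the chaperone that supplies both pumps, had a high signal everywhere, at 4.61 in HN4 and 5.01 in HN30 against 5.35 in HN4/DDP and 4.26 in HN30/DDP. Its differences had opposite signs: 0.74 in HN4/DDP (scanner SD 0.20), or 1.67-fold higher, and -0.75 in HN30/DDP (scanner SD 0.20), or 1.68-fold lower. Of the genes well above background on both arrays, 9.76% had a larger difference in HN4/DDP, and 20.7% had a lower one in HN30/DDP. In HN30/DDP this value varied with the scaling of the arrays, from -1.17 to -0.24. By the brightest probe of each gene, ATOX1 was the only member past 1 between the resistant lines, with -1.09 for HN30/DDP minus HN4/DDP, where 10.4% of genes were lower and 16.4% higher. By the same probes no member passed 1 between the parental lines (7.08% of genes were lower and 3.32% higher in HN30 than in HN4). Of the dimmer probes, SLC31A1 probe 1 differed by -1.04 between the resistant lines, and ATP7A probe 2 by 1.37 between the resistant and -1.08 between the parental lines. The pair of opposite values averaged to a limma difference of -0.0020 (standard error 0.48, adjusted p = 0.999).

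For the importers, SLC31A1 did not reach the threshold. Its brighter probe, probe 2, read 1.07 in HN4 and 0.85 in HN30 against 1.28 in HN4/DDP and 0.60 in HN30/DDP, giving differences of 0.21 (scanner SD 0.20) and -0.25 (scanner SD 0.20). The resistant arrays were the highest and the lowest of the 4. Probe 1 of the same transcript read -0.82, -0.43, -0.86 and -1.46 in the same order of arrays, with differences of 0.39 and -0.61 (scanner SD 0.21 in each). Both probes of SLC31A1 thus had the same signs, with larger sizes by probe 1. The HN30/DDP value of probe 2 ran from -0.67 to 0.011 over 11 other settings, so its sign depends on the scaling. The limma difference by probe 2 was -0.021 (standard error 0.42, adjusted p = 0.994).

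SLC31A2 lies beside SLC31A1 on chromosome 9, and its signal was lower on both resistant arrays than on both parental ones. It read 3.16 in HN4 and 2.77 in HN30 against 1.71 in HN4/DDP and 1.92 in HN30/DDP. The difference was -1.45 in HN4/DDP (scanner SD 0.20), or 2.73-fold lower, where 2.84% of the genes well above background on both arrays were lower still. In HN30/DDP it was -0.85 (scanner SD 0.20), or 1.8-fold lower, and 17.8% of the genes were lower still. The second value did not reach the threshold. With the arrays scaled to their medians it was -1.27, and with quantile normalization -0.54. Genes past -1 in both lines were 1.73% of all genes, and no member was among them.

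The probes of the organic cation carriers gave no signal that could be compared. The linear signals of the 2 probes of SLC22A2 (chr6:160638226-160638285 and chr6:160665437-160665496, minus strand) lay between 3.69 and 12.9 over the 4 arrays. Those of the SLC22A3 probe (chr6:160875313-160875372, plus strand) were 16.5 in HN4 and 3.65 in HN30 against 3.15 in HN4/DDP and 3.17 in HN30/DDP. None of these signals was marked well above background, so no fold change is given for either gene. The SLC22A3 probe was designed on a clone, not on a RefSeq transcript, and whether it reads the carrier's own messenger RNA could not be checked here.

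The subunits of the volume-regulated anion channel differed from each other. LRRC8A read 5.05 in HN4 and 4.90 in HN30 against 4.71 in HN4/DDP and 5.03 in HN30/DDP, a range of signals narrower than that of any other member well above background by its main probe. Its differences were -0.34 and 0.13 (scanner SD 0.20 in each), and the second ran from -0.29 to 0.67 over 11 other settings, so its sign depends on the scaling. LRRC8D read 2.59 in HN4 and 2.47 in HN30 against 1.19 in HN4/DDP and 1.99 in HN30/DDP. The parental arrays were close for LRRC8D, and both resistant arrays lay below them. Its difference was -1.40 in HN4/DDP (scanner SD 0.20), or 2.64-fold lower, with 3.11% of genes lower still, and -0.48 in HN30/DDP (scanner SD 0.20), or 1.40-fold lower. The HN30/DDP value ran from -0.90 to -0.16 over 11 other settings. By limma the difference of LRRC8D was -0.94 (standard error 0.46, adjusted p = 0.660) and that of LRRC8A was -0.11 (standard error 0.34, adjusted p = 0.951).

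The other LRRC8 subunits complete the channel family. LRRC8B read 1.06, 1.1, 1.15 and -0.09 in HN4, HN4/DDP, HN30 and HN30/DDP, and so was lower in HN30/DDP (-1.24) and level in HN4/DDP (0.04). LRRC8C differed by -0.93 and -0.35, and LRRC8E by 0.93 and 0.38, all under the threshold. Of the 5 LRRC8 genes, LRRC8D was the only one counted in HN4/DDP, where 8.65% of all genes were lower. LRRC8B was the only one counted in HN30/DDP, where 13.3% of all genes were lower. LRRC8B, LRRC8C and LRRC8E were not rerun under other settings.

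**Figure D3:**
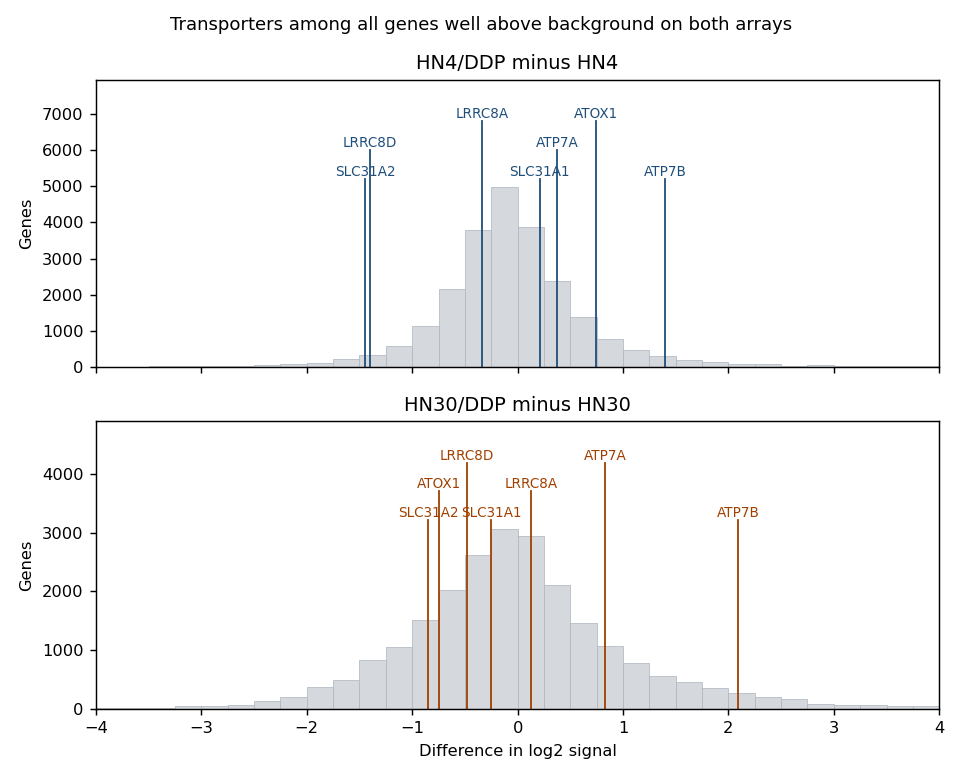
Number of genes (vertical axis) by difference in log2 signal (horizontal axis, from -4 to 4) among all genes that both arrays of the pair measured above background, with the 7 transporter genes as vertical lines whose heights only separate the names. ATP7B stands in the right tail in both lines, while SLC31A2 and LRRC8D stand in the left tail in HN4/DDP and nearer the middle in HN30/DDP.

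Other genes of copper handling and of drug transport were described by lists chosen by function. Of 8 copper chaperones and copper-delivery genes of the mitochondrion and cytosol (CCS, COX11, COX17, COX19, SCO1, SCO2, SLC25A3 and COA6), 0 passed the threshold in HN4/DDP. In HN30/DDP 4 were lower, among them COX11 (-1.34), which delivers copper to cytochrome oxidase, and SCO1 (-1.26), and 1, COX19, was higher (3.04), beside 13.3% and 19.8% of all genes. The list's median difference was -0.067 in HN4/DDP and -0.99 in HN30/DDP. Of 14 genes of copper handling and partners of the ATP7 pumps, 2 were higher and 0 lower in HN4/DDP. In HN30/DDP 3 of them were higher and 2 lower, and the medians were 0.078 and 0.14. The shares of all genes were 9.31% higher and 8.65% lower in HN4/DDP, and 19.8% and 13.3% in HN30/DDP. CLU, a chaperone reported to bind the ATP7 pumps, and GLRX were higher in both lines, as were 3.9% of all genes. The signals of CLU were -3.93, 1.30, -3.28 and -1.14 in HN4, HN4/DDP, HN30 and HN30/DDP. Its differences were 5.23 (scanner SD 0.27) and 2.15 (scanner SD 0.24). GLRX, the glutaredoxin that reduces the copper sites of both pumps, was higher by 2.54 and 1.58 (scanner SD 0.20 in each).

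Of the cuproenzymes, 8 of 12 could be compared in HN4/DDP, where 1 was higher and 1 lower, and 9 in HN30/DDP, where 4 were higher and 1 lower. Of all genes 9.31% were higher and 8.65% lower in HN4/DDP, and 19.8% and 13.3% in HN30/DDP. MOXD1, a copper monooxygenase-like protein, was the only one higher in both, as were 3.9% of all genes, with a difference of 2.91 in HN30/DDP and at least 2.06-fold in HN4/DDP, since it was not well above background in HN4. LOX, the copper-dependent enzyme that crosslinks collagen, was lower in HN4/DDP (-1.85) and higher in HN30/DDP (1.52). Of 8 genes of copper-induced cell death, 0 passed in HN4/DDP and 2 were lower in HN30/DDP, DLAT (-1.26) and DLD (-1.78), both subunits of the pyruvate dehydrogenase complex. Of 7 other organic cation carriers, 5 could be compared in each line. In HN4/DDP 0 were higher and 2 lower, and in HN30/DDP 2 were higher, SLC29A4 (3.80) and SLC47A2 (3.09), and 1 lower. SLC22A4, the carnitine and ergothioneine carrier OCTN1, was the only one lower in both, as were 1.73% of all genes. Its signals were 0.54, -0.48, 0.50 and -1.74 in HN4, HN4/DDP, HN30 and HN30/DDP, and its differences -1.02 and -2.24. The medians of these 3 lists were -0.52, -0.23 and -0.89 in HN4/DDP and 0.11, -0.80 and -0.27 in HN30/DDP. Other scalings move the median of all genes in HN30/DDP by between -0.42 and 0.26, and in HN4/DDP by no more than 0.076. List values in HN30/DDP are relative to that shift, and single genes can move more than the median. With the authors' values the HN30/DDP median moved by -0.084, while LRRC8A went from 0.13 to 0.67. ATOX1 went from -0.75 to -0.24 and ATP7B from 2.09 to 2.04. The lists were not rerun under other settings.

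**Figure D4:**
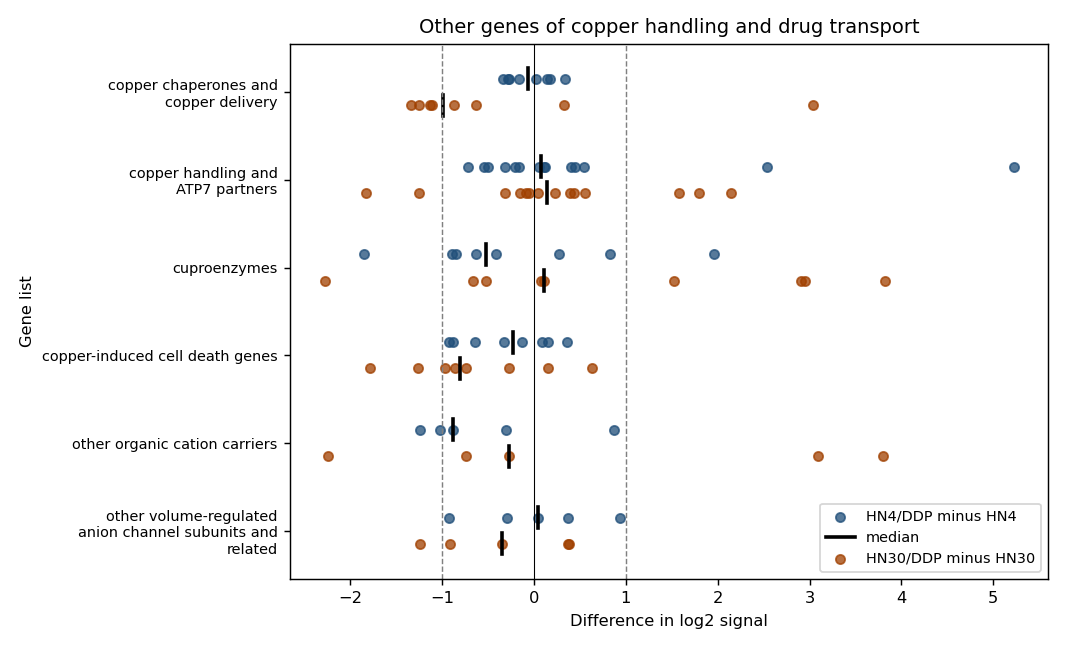
Difference in log2 signal (horizontal axis) of every gene of 6 functional lists (vertical axis) that was well above background on at least 1 array of the pair; points are genes, black bars are list medians and dashed lines mark 1 and -1. CLU stands farthest to the right, at 5.23 in HN4/DDP.

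The genes most like SLC31A1 and LRRC8A were taken as those with the nearest 4 signals after centring each gene, among 22149 genes. For SLC31A1 they were FZD3 (distance 0.069), CAPZB (0.070) and the transcript ENST00000511721 (0.075). For LRRC8A they were the noncoding transcripts lnc-MRPS14-1 (0.021), lnc-TSHZ1-1 (0.023) and lnc-RNF144B-1 (0.024). With 4 arrays and this many genes, such near neighbours describe these arrays alone.

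Promoters were examined because the study concerns a factor of the CREB family. The paper gives the binding sites of CREB as TGACG (canonical) and TGGCG (non-canonical). Only the full cAMP response element TGACGTCA, a stricter pattern that contains TGACG, was searched here. Metals act on genes through the metal response element, searched here as the pattern TGCNCNC with N any base. That pattern is looser than the element's usual core, so a match to it need not be a metal response element. RefSeq windows were given for 7 of the 9 members, and the 250 bases before each annotated start were searched on both strands. The cAMP response element stood before SLC31A1 and before 1 of the 2 starts of LRRC8A, against 1.65% of all 35116 windows. The loose pattern TGCNCNC stood in windows of ATOX1, ATP7A, ATP7B, LRRC8D, SLC22A2 and SLC31A1, and in 49.1% of all windows. In the following lines capitals mark the cAMP response element (SLC31A1 and LRRC8A) or the loose pattern TGCNCNC (ATP7B, the member higher in both lines), in GRCh38.p14.
SLC31A1, chr9:113221294-113221543, plus strand: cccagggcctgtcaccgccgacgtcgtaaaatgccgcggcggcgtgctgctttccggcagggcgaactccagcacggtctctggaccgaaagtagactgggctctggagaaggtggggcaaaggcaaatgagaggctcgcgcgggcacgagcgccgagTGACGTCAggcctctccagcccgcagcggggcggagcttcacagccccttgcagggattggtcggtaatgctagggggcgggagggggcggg
LRRC8A, chr9:128881883-128882132, plus strand: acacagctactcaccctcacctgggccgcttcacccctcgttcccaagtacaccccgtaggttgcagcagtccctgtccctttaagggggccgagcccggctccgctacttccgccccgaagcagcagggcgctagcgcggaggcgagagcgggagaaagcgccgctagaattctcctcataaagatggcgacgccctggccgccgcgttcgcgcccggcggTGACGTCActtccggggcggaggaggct
ATP7B, chr13:52012133-52012382, minus strand: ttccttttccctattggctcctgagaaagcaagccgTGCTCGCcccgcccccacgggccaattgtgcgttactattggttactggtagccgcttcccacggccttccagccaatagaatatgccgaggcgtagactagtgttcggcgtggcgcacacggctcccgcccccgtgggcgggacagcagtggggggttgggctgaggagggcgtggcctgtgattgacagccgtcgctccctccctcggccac
The motif of SLC31A1 begins 92 bases before the start and that of LRRC8A 28 bases before it. Neither gene passed the threshold in either line. ATP7B has 3 windows, and the one shown lies before its outermost start. The GC box GGGCGG, which Sp1 binds, stood in windows of ATOX1, ATP7B (2 of its 3 windows), LRRC8A, LRRC8D, SLC22A2 and SLC31A1 and in 42.6% of all windows, and the antioxidant response element core TGACNNNGC stood in no window of a member and in 10.9% of all windows. These matches are letters in a window and say nothing of a factor at the site.

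**Figure D5:**
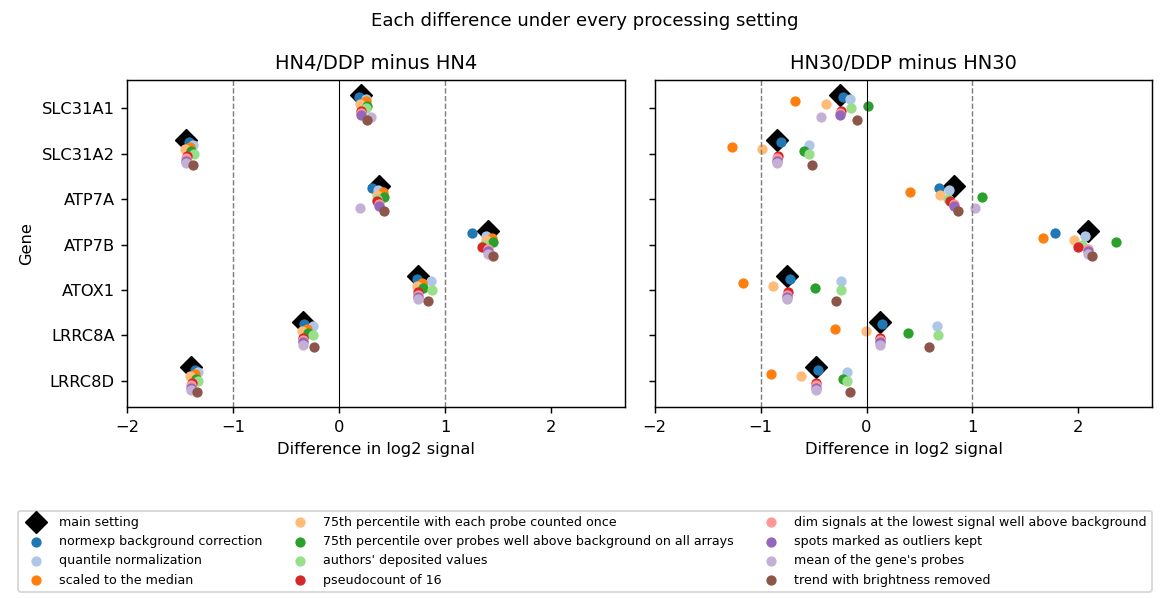
Difference in log2 signal (horizontal axis) of the 7 genes (vertical axis) under the main setting (black diamonds) and 11 other processing settings (coloured points); dashed lines mark 1 and -1. The points lie close together in HN4/DDP and spread more in HN30/DDP, where LRRC8A runs from -0.29 to 0.67 and ATP7B from 1.67 to 2.35.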

How the data were processed

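RNA of the 4 cell lines was hybridised to single-colour Agilent human arrays, 1 per line, on 1 slide with 1 scan time. The authors deposited the scanner output, processed signal intensity per spot made with Agilent Feature Extraction 10.7.1.1 per the submitters' processing notes, and a table of log2 values per probe, which have the same quantiles on every array and so were quantile normalized by the authors. Probe positions are hg19, per the deposited scanner files.

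Control spots and spots flagged as outliers were left out, the log2 intensity was reduced by the 75th percentile of all non-control spots, spots of a probe were averaged, and a gene was represented by its brightest probe. A signal not well above background gave no fold change. A call needed a log2 difference past 1. The scanner SD was propagated from the signal error in the scanner files. The cell lines served as replicates in limma 3.58.1 (R 4.3.3, cell line as block, moderated with a trend, Benjamini-Hochberg adjustment). Its p-values measure only the spread between these 4 arrays, since nothing says that cultures were replicated, which also limit the precision. Other steps used Python 3.11.15, numpy 2.4.6, pandas 2.3.3 and statsmodels 0.14.6, and the fit and the counting were tested on simulated data.

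The members and lists were chosen with earlier results of these data known. The text names every member and every LRRC8 subunit, genes of the lists past 1 in the same direction in both lines, and the 3 genes nearest in profile to SLC31A1 and to LRRC8A. The copper chaperones, LOX, DLAT, DLD and the cell type markers named beside them were chosen after their values were seen. The 9 planned settings changed the background correction, scaling, choice of probe, pseudocount, dim signals and flags, or used the authors' log2 table. A further 2 settings, chosen after seeing the data, counted each probe once in the percentile or removed the trend with brightness. The value of 1 leukocyte marker is not reported here.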

Additional observations from a re-analysis of the deposited data

Results flagged for a closer look

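For several genes and probes named in the text, the resistant array lay above the parental array in one cell line and below it in the other. The values that follow are the difference between the lines on the log2 scale (HN30/DDP minus HN30, less HN4/DDP minus HN4). By the brightest probe this was -1.49 for ATOX1, -0.46 for SLC31A1, 0.47 for LRRC8A and -1.29 for LRRC8B, with a scanner SD of 0.29 for each. In LRRC8B the HN4/DDP value of 0.04 was smaller than its scanner SD of 0.20. Among the dimmer probes it was -0.999 for SLC31A1 probe 1 (scanner SD 0.29), 2.45 for ATP7A probe 2 (scanner SD 0.45) and -0.51 for ATP7A probe 4 (scanner SD 0.31). Among the other copper genes it was 3.38 for COX19 and -1.40 for SCO1 (scanner SD 0.29 in each) and 3.37 for LOX (scanner SD 0.10). In SCO1 the HN4/DDP value of 0.14 was also smaller than its scanner SD of 0.20. The same held for LRRC8A in HN30/DDP, at 0.13 (scanner SD 0.20). It held too in HN4/DDP for ATP7A probe 2, at -0.23 (scanner SD 0.27), and ATP7A probe 4, at 0.17 (scanner SD 0.22). The signs of these 5 values are therefore within the scanner error. These differences between the lines were not tested, since each line has 1 resistant and 1 parental array.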

How the results depend on the processing

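Under the 11 alternatives no member's difference in HN4/DDP moved by more than the scanner SD, whereas 27 values of HN30/DDP moved by more. Scaled to the median, the HN30/DDP differences were -0.67 for SLC31A1, -1.27 for SLC31A2, 0.41 for ATP7A, 1.67 for ATP7B, -1.17 for ATOX1, -0.29 for LRRC8A and -0.90 for LRRC8D. With the 75th percentile over probes well above background on all arrays they were 0.011, -0.59, 1.09, 2.35, -0.48, 0.39 and -0.22 in the same order of genes. For SLC31A2, ATOX1, LRRC8A and LRRC8D they were -0.54, -0.24, 0.66 and -0.19 with quantile normalization, -0.54, -0.24, 0.67 and -0.19 in the authors' table, and -0.52, -0.29, 0.59 and -0.16 with the trend with brightness removed. ATP7B was 1.78 with normexp background correction. The cause of these shifts was not tested.

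Of 52 counts of members past the threshold, 47 were within 1.5 times the main count. With the threshold at 2, HN4/DDP had 0 higher and 0 lower. In HN30/DDP 2 were higher, ATP7A added, with the percentile over probes well above background or the mean of a gene's probes, and 2 were lower when scaled to the median. In limma 0 genes passed an adjusted p of 0.05 under any of 7 alternatives, with 1957 to 3261 genes at an unadjusted p under 0.05, the most without the cell line block. By replicate number, no paired analysis was possible because every array is numbered 1, and the limma fit paired the arrays by cell line instead. Signal over background limits SLC22A2 and SLC22A3 to no comparison.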
